A study of Mus musculus with 14 samples.

Results

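The genes described here are 10 feedback regulators and targets of the ERK pathway in mouse embryonic stem cells (ESCs): Spry2, Spry4, Spred1, Spred2, Il17rd, Dusp4, Dusp6, Etv4, Etv5 and Epha2. They were taken by gene symbol from the 41204 genes of the expression table, and all 10 were among the 15430 genes tested, those averaging more than 0.2 FPKM (fragments per kilobase of transcript per M mapped fragments). Poly(A) RNA was sequenced from wild-type and Trincr1-/- ESCs in 2 media, with 2 samples in each of the 4 groups. The ESCs were derived from a cross of C57BL/6 and 129/sv mice. Trincr1 is a lncRNA (Gm2694 in the table) that the study named for its interaction with the RNA-binding protein TRIM71, and it was deleted with a pair of CRISPR guide RNAs. How many knockout clones gave the RNA is not stated, so clone and genotype cannot be told apart. In 2i + LIF the N2B27 medium held 1 μM of the MEK inhibitor PD0325901 (PD), 3 μM of the GSK3 inhibitor CHIR99021 and 1000 units per ml of leukemia inhibitory factor (LIF). In PD + LIF, cells spent 24 h in 2i + LIF and then 4 days without the GSK3 inhibitor. The MEK inhibitor was therefore present in every sample, and the table holds no group with a fully active pathway. How long the 2i + LIF samples had grown before harvest is not stated, so the medium and the time after plating cannot be told apart. In bulk RNA, a smaller number of expressing cells and less RNA per cell cannot be told apart either.

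ERK is activated when fibroblast growth factors and other ligands engage receptor tyrosine kinases, which signal through RAS, RAF and MEK. In ESCs, FGF4 acting through this route moves cells out of naive pluripotency, and MEK inhibition is used to hold them there. The pathway induces its own inhibitors, which act at different levels, and it induces the PEA3 group of ETS transcription factors, which in turn regulate many FGF-responsive genes. GSK3 inhibition stabilises β-catenin, so the comparison of PD + LIF with 2i + LIF asks how these genes respond when that input is withdrawn under continued MEK inhibition. The comparison of Trincr1-/- with wild type asks how they respond to loss of a lncRNA that the study examined as a regulator of FGF/ERK signaling.

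The samples were sequenced to a similar depth, estimated at 8.92 to 12.4 M fragments from the steps between low FPKM values. Replicates correlated at 0.989 to 0.991 on the log2 scale across genes. Gm2694 was at 5.70 and 9.45 FPKM in wild-type ESCs in 2i + LIF and at 0.0754 and 0 in Trincr1-/- ESCs, and in PD + LIF at 6.18 and 6.56 against 1.38 and 0.746, so reads on this locus were not absent from the knockout in PD + LIF. All 9 pluripotency markers examined, Pou5f1, Nanog and Zfp42 among them, averaged above 1 FPKM, which fits the label of the cells. The summed markers of other states moved with the groups. The 6 formative and primed epiblast markers (Otx2, Dnmt3b and others, none at 0 throughout) summed to 47.4 to 57.3 FPKM in 2i + LIF, 164 to 180 FPKM in wild type in PD + LIF and 212 to 231 FPKM in Trincr1-/- in PD + LIF. Within this list Dnmt3b was at 65.4 and 79.4 FPKM in wild type and 137 and 122 FPKM in Trincr1-/- in PD + LIF, while Cldn6 was at 46.0 and 43.8 against 22.2 and 22.2 FPKM, so its members did not move one way with genotype. The 9 pluripotency markers summed to 3605 to 3877, 2858 to 3177 and 1885 to 2102 FPKM in the same order. Dppa5a led these sums, at 1910 and 1597 FPKM in wild type and 820 and 1024 FPKM in Trincr1-/- in PD + LIF. Sox2 went the other way with the medium in wild type, from 149 and 144 FPKM to 185 and 173 FPKM. In PD + LIF the genotypes overlapped in Klf4 and Tdgf1. Of the 5 neural progenitor markers, 3 averaged above 1 FPKM, and the list rose from 6.89 to 8.26 FPKM in 2i + LIF to 28.2 to 30.7 FPKM in wild type and 38.3 to 38.6 FPKM in Trincr1-/- in PD + LIF. The 7 trophoblast markers, led by the keratin Krt18, summed to 19.1 to 24.1, 117 to 122 and 163 FPKM, while Elf5 did not exceed 0.204 FPKM. Members of this list also moved the other way. Eomes fell from 3.16 and 2.93 FPKM in 2i + LIF to 1.46 and 1.63 FPKM in PD + LIF in wild type. In Trincr1-/- in PD + LIF it was at 0.813 and 0.953 FPKM. Cdx2 fell from 0.727 to 3.43 FPKM in 2i + LIF to at most 0.166 FPKM in PD + LIF. In PD + LIF Tfap2c was lower in Trincr1-/-, at 33.9 and 38.9 against 49.0 and 42.1 FPKM, while Krt18 was higher. The 7 endoderm markers summed to 1.04 to 1.89, 4.67 to 5.55 and 7.08 to 7.75 FPKM in the same order of groups. The 8 fibroblast feeder markers summed to 0.714 to 1.5, 4.47 to 4.92 and 5.93 to 6.87 FPKM, with Dcn and Lum below 0.1 FPKM in every sample. The 5 mesoderm markers, led by the gene T, summed to 2.61 to 3.57 FPKM in 2i + LIF. In PD + LIF the sum was at most 1.04 FPKM, and Mesp1 was below 0.1 FPKM throughout. Tbx6 went the other way with the medium in wild type, from 0.189 and 0.189 FPKM to 0.613 and 0.450 FPKM. The part of these shifts in the results below was not tested.

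FPKM is scaled per length, so levels can be set beside each other across genes. In wild-type ESCs in 2i + LIF the order of the mean levels was Etv5, Etv4, Spry2, Epha2, Spred2, Il17rd, Spred1, Dusp6, Spry4 and Dusp4, and the samples of neighbouring genes in this order did not overlap. Trincr1-/- ESCs in 2i + LIF kept the order, with Dusp6 and Spry4 overlapping. In PD + LIF the order was different. Etv5 remained the highest of the 10 in every group, while Etv4 dropped from the second to the ninth place and Spry4 to the last in either genotype. In wild type Spred2, Epha2 and Spry2 then followed Etv5 with overlapping neighbours, and in Trincr1-/- Spry2, Spred2 and Epha2 followed without overlap, with Dusp4 and Il17rd as the only overlapping neighbours. The 10 genes summed to 241 to 252 FPKM in the 4 samples in 2i + LIF and to 112 to 134 FPKM in the 4 samples in PD + LIF.

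**Figure D1:**
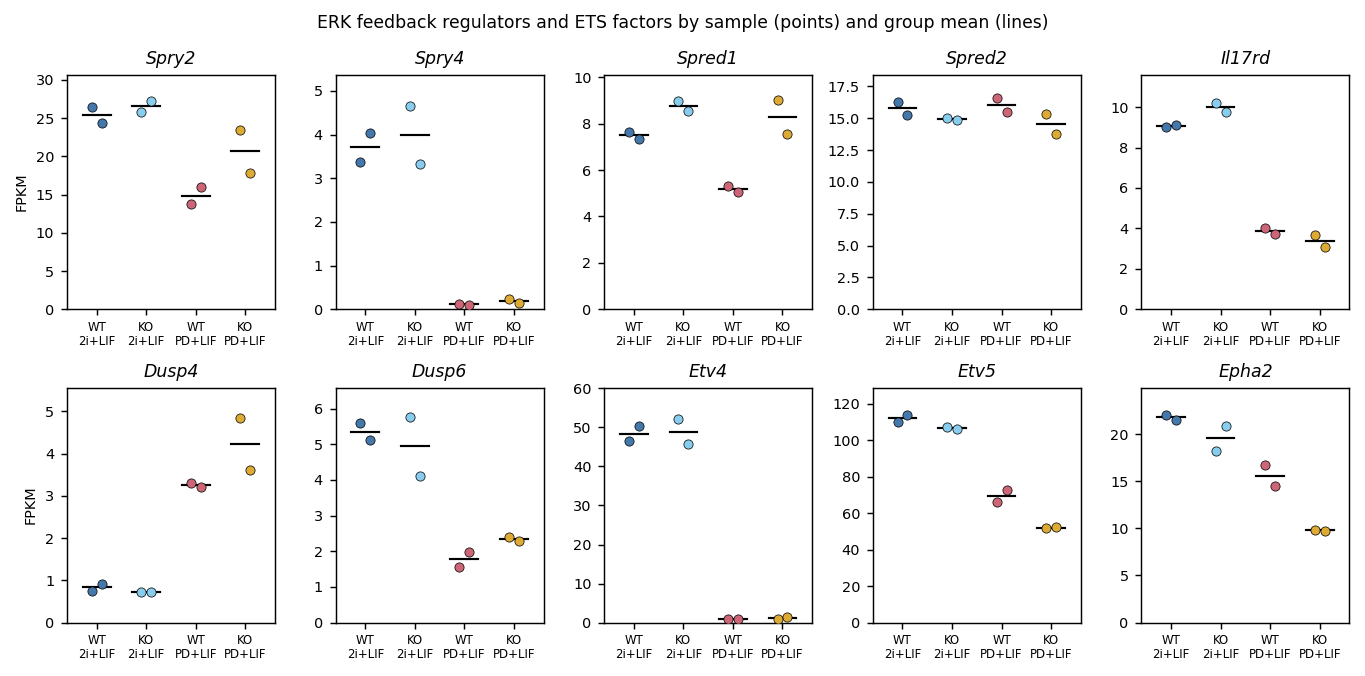
FPKM of the 10 genes in each of the 8 samples (points; linear axes from 0) with the mean of the 2 samples of each group (lines), for wild type (WT) and Trincr1-/- (KO) in 2i + LIF and PD + LIF. Etv4 fell from 45.8 to 52.1 FPKM in 2i + LIF to at most 1.52 FPKM in PD + LIF, Dusp4 is higher in PD + LIF, and Spred2 lies between 13.8 and 16.6 FPKM throughout.

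For 7 of the 10 genes RefSeq gave a promoter window, taken here as the 250 bases before the start. The windows of Dusp6 and Il17rd, which fell with the medium in both genotypes, and of Spred1 and Epha2, which differed between genotypes in PD + LIF, are shown so that the sequence next to the start of called genes can be read beside their values. A 29-base stretch of the Spred2 window is shown because it held the only motif match. It lies before the RefSeq start but after the start of the Spred2 locus in the expression table, so by that annotation it is inside the gene. All are written on the strand of the gene, 5′ to 3′, and capitals mark a motif match.
Dusp6 (GRCm38.p6, chr10:99262981-99263230, plus strand): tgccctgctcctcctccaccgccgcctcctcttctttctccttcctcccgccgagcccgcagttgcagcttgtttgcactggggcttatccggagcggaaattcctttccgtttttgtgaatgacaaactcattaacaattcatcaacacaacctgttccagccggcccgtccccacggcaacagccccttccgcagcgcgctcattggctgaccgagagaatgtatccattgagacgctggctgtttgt
Il17rd (GRCm38.p6, chr14:27038751-27039000, plus strand): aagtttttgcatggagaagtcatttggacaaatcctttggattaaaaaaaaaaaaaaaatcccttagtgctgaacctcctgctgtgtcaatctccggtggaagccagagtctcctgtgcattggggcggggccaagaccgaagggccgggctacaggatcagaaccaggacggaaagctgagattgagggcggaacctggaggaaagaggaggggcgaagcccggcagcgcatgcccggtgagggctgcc
Spred1 (GRCm38.p6, chr2:117120821-117121070, plus strand): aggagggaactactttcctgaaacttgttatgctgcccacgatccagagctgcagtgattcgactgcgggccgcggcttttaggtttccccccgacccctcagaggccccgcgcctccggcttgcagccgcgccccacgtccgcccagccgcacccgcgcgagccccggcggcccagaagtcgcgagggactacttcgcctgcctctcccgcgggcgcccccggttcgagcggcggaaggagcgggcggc
Epha2 (GRCm38.p6, chr4:141300971-141301220, plus strand): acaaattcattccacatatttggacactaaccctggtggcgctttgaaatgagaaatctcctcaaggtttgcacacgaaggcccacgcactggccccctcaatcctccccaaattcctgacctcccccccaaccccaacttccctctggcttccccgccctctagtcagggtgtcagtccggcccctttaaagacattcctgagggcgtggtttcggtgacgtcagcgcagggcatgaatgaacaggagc
Spred2 (GRCm38.p6, chr11:19924398-19924426, plus strand): gcttccgccctACTTCCTcctcctgttgg
The letters CCGGAAG and AGGAAGT (both ETS cores), CTTTGAT (TCF/LEF) and TGANTCA (AP-1) were searched on both strands of the 8 windows of these 7 genes. None of the 4 printed in full held any of them, so they carry no capitals. The match in Spred2 was AGGAAGT on the opposite strand, read as ACTTCCT on the gene strand, with its last base 27 bases before the RefSeq start. Over 32851 promoter windows of the same length, 6.91% held CCGGAAG, 7.69% held AGGAAGT, 3.21% held CTTTGAT and 6.75% held TGANTCA. The absence of these letters from a window describes that window only. The window of Epha2 had a GC content of 55.6% and that of Spred1 70.8%.

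Most of the 10 genes were lower in PD + LIF than in 2i + LIF in wild-type ESCs. With limma on log2(FPKM + 1) and Benjamini-Hochberg adjustment over all 15430 genes, 8 of the 10 fell and 1 rose. Over all genes 52.2% passed this test, 21.3% as lower and 30.9% as higher. The median log2 fold change of the 10 genes was -0.71, against 0.08 over all genes tested. In Trincr1-/- ESCs 6 fell and 1 rose, where 50.0% of all genes passed, 20.3% as lower and 29.6% as higher, and the medians were -0.87 and 0.07. A fold rule without a test (a ratio of mean FPKM above 2 and an average of at least 1 FPKM) took in 4 lower genes and 1 higher gene of the 10 in wild type, where 15.1% of all genes passed it, and 5 lower and 1 higher in Trincr1-/-, where 15.6% did. Rescaling shifted the balance over all genes. After quantile normalization 49.1% of the genes called in wild type were higher, against 59.2% as deposited, and 48.3% against 59.3% in Trincr1-/-, and the median of all genes moved to -0.02 and -0.04. Of the 10 genes 9 were still called in wild type, and 8 in place of 7 in Trincr1-/-, with Spry2 added as lower. The fold changes below are on the log2(FPKM + 1) scale, which understates the change of genes with low FPKM.

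Spry2 and Spry4 are Sprouty proteins, inhibitors that restrain receptor tyrosine kinase signaling upstream of RAF. Spry2 (ENSMUSG00000022114, GRCm38 chr14:105891949-105896819) was at 26.5 and 24.4 FPKM in wild type in 2i + LIF and at 13.7 and 16.0 FPKM in PD + LIF. In Trincr1-/- ESCs it was at 25.8 and 27.2 FPKM in 2i + LIF and at 23.5 and 17.9 FPKM in PD + LIF. All 4 samples in 2i + LIF lay above all 4 in PD + LIF, and in PD + LIF both knockout samples lay above both wild-type samples. The medium effect was -0.74 ± 0.13 (log2 fold change ± SE, n = 2 per group, limma adjusted p = 0.0025) in wild type and -0.36 ± 0.13 (limma adjusted p = 0.0542) in Trincr1-/-, where it missed the threshold. That effect in Trincr1-/- passed after TMM scaling (limma adjusted p = 0.0224) and quantile normalization (0.043), with only genes above 1 FPKM (0.0459), and without Trincr1-/- PD + LIF replicate 1 (0.0126).

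Spry4 (ENSMUSG00000024427, chromosome 18) was the lowest of the 10 genes in PD + LIF. Its FPKM was 3.38 and 4.04 in wild type and 4.66 and 3.32 in Trincr1-/- in 2i + LIF, and 0.13 and 0.0972 in wild type and 0.233 and 0.136 in Trincr1-/- in PD + LIF. The media did not overlap in either genotype. Mean levels were 32.7-fold lower in PD + LIF in wild type and 21.6-fold lower in Trincr1-/-, with fitted changes of -2.08 ± 0.16 (limma adjusted p = 6.09e-05) and -2.06 ± 0.16 (limma adjusted p = 5.88e-05). The PD + LIF values rest on an estimated 4.60 to 11.0 fragments per sample, so their ratios are imprecise. 2 short RNA genes within the locus, Gm27369 and Gm27804, were at 0 FPKM in all samples. Within a sample, the ratio of Spry2 to Spry4 was 5.54 to 8.20 in 2i + LIF and 101 to 165 in PD + LIF.

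Spred1 and Spred2 encode Sprouty-related proteins that bind neurofibromin and limit RAS activation. Spred1 (ENSMUSG00000027351, GRCm38 chr2:117121374-117182279) was at 7.64 and 7.35 FPKM in wild type in 2i + LIF and at 5.33 and 5.04 FPKM in PD + LIF. It was at 8.98 and 8.53 FPKM in Trincr1-/- in 2i + LIF and at 9.00 and 7.54 FPKM in PD + LIF. Only the wild-type samples separated by medium, and the knockout samples of the media overlapped. Spred1 fell in wild type by 0.46 on the log2 scale (SE 0.10, limma adjusted p = 0.00717). In Trincr1-/- the change was -0.08 (95% interval -0.32 to 0.16, limma adjusted p = 0.553). Spred2 (ENSMUSG00000045671, GRCm38 chr11:19924375-20024026) was the flattest of the 10. It was at 16.3 and 15.3 FPKM in wild type and 15.0 and 14.9 FPKM in Trincr1-/- in 2i + LIF, and at 16.6 and 15.5 FPKM and at 15.4 and 13.8 FPKM in PD + LIF. The media overlapped in both genotypes, and the 95% intervals of the medium effect, -0.16 to 0.20 in wild type and -0.22 to 0.15 in Trincr1-/-, bound it within a small range on this scale. The ratio of Spred2 to Spred1 was 2.08 and 2.13 in wild type in 2i + LIF and 3.07 and 3.12 in PD + LIF, and it was 1.67 to 1.83 in the 4 knockout samples.

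Il17rd (ENSMUSG00000040717, GRCm38 chr14:27039001-27107286) encodes SEF, a transmembrane inhibitor of FGF signaling. It was at 9.01 and 9.10 FPKM in wild type and 10.2 and 9.77 FPKM in Trincr1-/- in 2i + LIF, and at 4.00 and 3.73 FPKM and at 3.69 and 3.10 FPKM in PD + LIF. Every sample in 2i + LIF was above every sample in PD + LIF. It fell in both genotypes, with log2 changes of -1.05 ± 0.10 in wild type (limma adjusted p = 0.000158) and -1.33 ± 0.10 in Trincr1-/- (limma adjusted p = 5.04e-05).

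Dusp4 and Dusp6 encode dual-specificity phosphatases that remove the activating phosphates from ERK. DUSP6 is cytoplasmic and selective for ERK, and DUSP4 is nuclear. These phosphatase genes moved in opposite directions. Dusp6 (ENSMUSG00000019960, GRCm38 chr10:99263231-99267488) was at 5.60 and 5.11 FPKM in wild type and 5.77 and 4.12 FPKM in Trincr1-/- in 2i + LIF, and at 1.57 and 1.98 FPKM and at 2.40 and 2.28 FPKM in PD + LIF. All samples in 2i + LIF were above all samples in PD + LIF. The fall was -1.20 ± 0.16 in wild type (limma adjusted p = 0.000648) and -0.82 ± 0.16 in Trincr1-/- (limma adjusted p = 0.00412). Dusp4 (ENSMUSG00000031530, GRCm38 chr8:34807297-34819894) was at 0.752 and 0.914 FPKM in wild type and 0.713 and 0.734 FPKM in Trincr1-/- in 2i + LIF. In PD + LIF it was at 3.30 and 3.20 FPKM and at 4.85 and 3.60 FPKM, again without overlap between media. Dusp4 was the only one of the 10 to rise, by 1.21 ± 0.14 in wild type (3.90-fold in mean FPKM, limma adjusted p = 0.000397) and by 1.59 ± 0.14 in Trincr1-/- (5.84-fold, limma adjusted p = 0.000113). Within a sample, Dusp6 was 5.59 to 8.09 times Dusp4 in 2i + LIF and 0.477 to 0.633 times Dusp4 in PD + LIF, so the order of these genes was inverted in all 8 samples according to the medium.

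**Figure D2:**
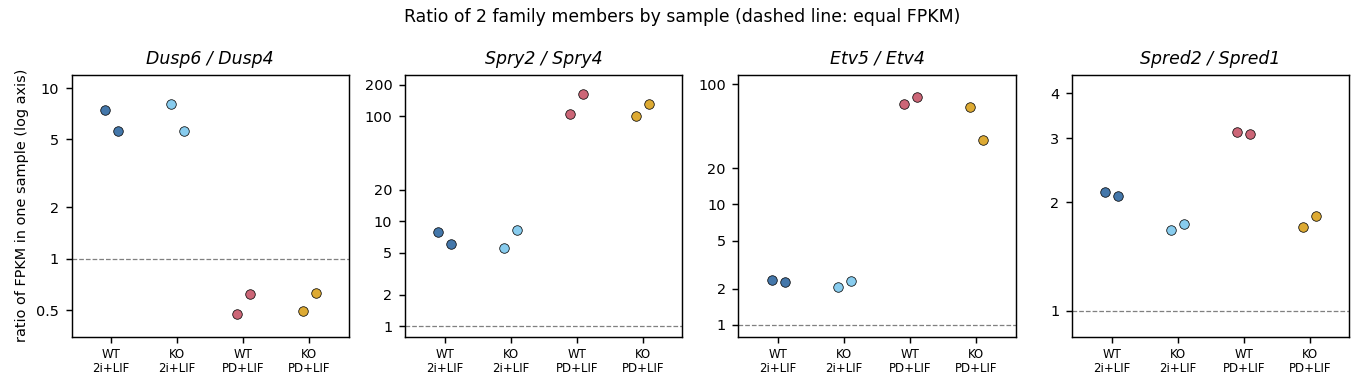
Ratio of the FPKM of 2 related genes within each of the 8 samples, on log axes, by group (WT, wild type; KO, Trincr1-/-). The ratio of Dusp6 to Dusp4 lies above 1 in the 4 samples in 2i + LIF and below 1 in the 4 samples in PD + LIF, the ratios of Spry2 to Spry4 and of Etv5 to Etv4 are higher in PD + LIF, and the ratio of Spred2 to Spred1 is at or above 2.08 in wild type and at or below 1.83 in the knockout.

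Etv4 and Etv5 are PEA3-group ETS transcription factors that act downstream of FGF receptors. Etv4 (ENSMUSG00000017724, GRCm38 chr11:101769742-101785371) showed the largest change of the 10. It was at 46.4 and 50.4 FPKM in wild type and 52.1 and 45.8 FPKM in Trincr1-/- in 2i + LIF, and at 0.965 and 0.940 FPKM and at 0.797 and 1.52 FPKM in PD + LIF. The lowest sample in 2i + LIF was far above the highest in PD + LIF. Mean levels were 50.9-fold lower in wild type (-4.66 ± 0.16, limma adjusted p = 4.28e-06) and 42.2-fold lower in Trincr1-/- (-4.55 ± 0.16, limma adjusted p = 2.62e-06). Etv5 (ENSMUSG00000013089, GRCm38 chr16:22381309-22439719) also fell but stayed abundant. It was at 110 and 114 FPKM in wild type and 107 and 106 FPKM in Trincr1-/- in 2i + LIF, and at 66.0 and 72.9 FPKM and at 51.7 and 52.5 FPKM in PD + LIF. In each genotype the media did not overlap, with changes of -0.68 ± 0.05 in wild type (limma adjusted p = 6.59e-05) and -1.02 ± 0.05 in Trincr1-/- (limma adjusted p = 1.13e-05). Etv4 made up 29.6% to 32.7% of the summed FPKM of the pair in 2i + LIF and 1.27% to 2.82% in PD + LIF.

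Epha2 (ENSMUSG00000006445, GRCm38 chr4:141301240-141329384) encodes an Eph receptor tyrosine kinase for A-type ephrins, and it is a known transcriptional target of ERK. It was at 22.0 and 21.5 FPKM in wild type in 2i + LIF and at 16.7 and 14.5 FPKM in PD + LIF. In Trincr1-/- it was at 18.2 and 20.9 FPKM and at 9.86 and 9.69 FPKM. The samples of the media did not overlap in either genotype. Epha2 changed by -0.46 ± 0.09 in wild type (limma adjusted p = 0.00431) and by -0.93 ± 0.09 in Trincr1-/- (limma adjusted p = 0.000167).

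**Figure D3:**
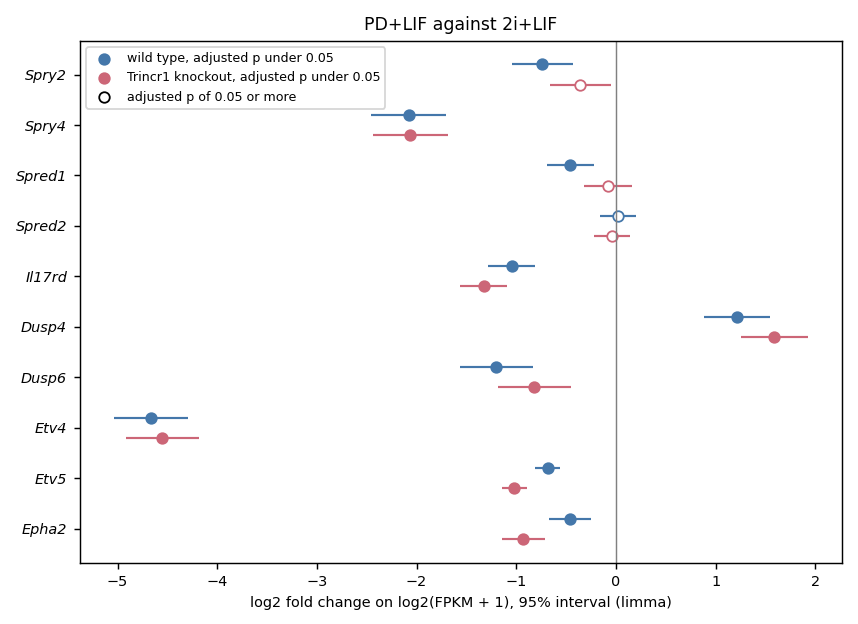
Log2 fold change of PD + LIF against 2i + LIF for the 10 genes on the log2(FPKM + 1) scale (points) with 95% intervals from limma (bars), in wild type (blue) and Trincr1-/- (red). Filled points passed an adjusted p of 0.05 over all genes. Etv4 lies at -4.66 and -4.55, Dusp4 is the only gene to the right of 0 among those called, and Spred2 lies near 0 in both genotypes.

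In 2i + LIF none of the 10 genes passed the test between genotypes. Limma called 0 of the 10, also 0 at an unadjusted p under 0.05, and the fold rule called 0. Over all genes 1.21% passed the adjusted test, 14.6% an unadjusted p under 0.05 and 1.97% the fold rule. The fitted changes ran from -0.15 for Epha2 to 0.20 for Spred1, with 5 positive and 5 negative and a median of -0.03 against 0.00 over all genes. The 95% intervals of the 10 lay between -0.48 and 0.45 on the log2(FPKM + 1) scale. They bound, gene by gene and on this scale only, the differences that 2 samples per group could have hidden. For members with low FPKM, such as Dusp4, the ratio of FPKM is less tightly bounded. For Spred1, both knockout samples, 8.98 and 8.53 FPKM, were above both wild-type samples, 7.64 and 7.35 FPKM, and the change of 0.20 ± 0.10 gave a limma adjusted p of 0.433.

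In PD + LIF, 3 of the 10 genes differed between genotypes. Spred1 was higher and Etv5 and Epha2 were lower in Trincr1-/- ESCs, where over all genes 12.1% passed, 6.29% as higher and 5.77% as lower. Spred1 was at 9.00 and 7.54 FPKM in the knockout and 5.33 and 5.04 FPKM in wild type, 1.60-fold in means (0.58 ± 0.10, limma adjusted p = 0.0152). Etv5 was at 51.7 and 52.5 FPKM against 66.0 and 72.9 FPKM, 1.33-fold lower (-0.41 ± 0.05, limma adjusted p = 0.00665). Epha2 was at 9.86 and 9.69 FPKM against 16.7 and 14.5 FPKM, 1.60-fold lower (-0.62 ± 0.09, limma adjusted p = 0.00848). In all 3 the samples of the genotypes did not overlap, but this also held for every other member except Etv4. The share of all genes without overlap was not computed. An inhibitor of RAS activation was thus higher while an ETS factor and a receptor were lower. These calls rest on single libraries: without Trincr1-/- PD + LIF replicate 1 none of the 10 genes passed (limma adjusted p of 0.0889 for Spred1, 0.057 for Etv5 and 0.0636 for Epha2), without wild-type PD + LIF replicate 1 only Etv5 did, and without wild-type PD + LIF replicate 2 Spred1 did not (limma adjusted p = 0.0773). With the 4 PD + LIF samples alone, which leaves 2 residual degrees of freedom, none passed, and the lowest limma adjusted p was 0.056, for Epha2. The fold rule, which 3.19% of all genes passed here, called 0 of the 10.

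The other 7 genes were not called by limma in PD + LIF. Spry2 had a change of 0.44 ± 0.13 with both knockout samples above both wild-type samples (limma adjusted p = 0.0687), and it passed without Trincr1-/- PD + LIF replicate 2 (limma adjusted p = 0.0411). The phosphatases Dusp4 and Dusp6 had changes of 0.29 ± 0.14 and 0.27 ± 0.16 (limma adjusted p = 0.236 and 0.304), and in each the 2 knockout samples lay above the 2 wild-type samples. Spry4 had 0.09 ± 0.16 and Etv4 0.13 ± 0.16, the former without overlap and the latter with overlapping samples. Il17rd had -0.15 ± 0.10 and Spred2 -0.13 ± 0.08, and in each the 2 knockout samples lay below the 2 wild-type samples. Over the 10 genes, 6 changes were positive and 4 negative, with a median of 0.11 against 0.01 over all genes tested.

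**Figure D4:**
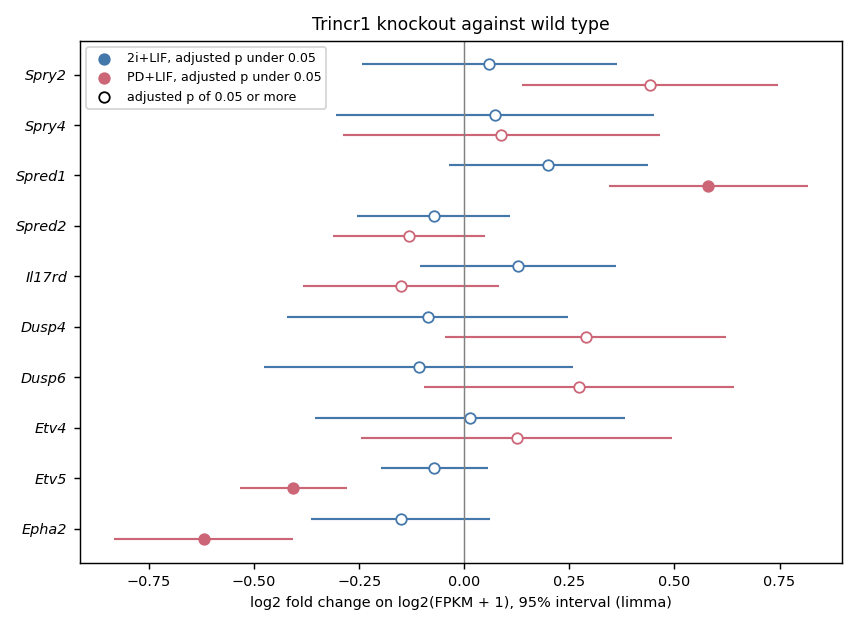
Log2 fold change of Trincr1-/- against wild type for the 10 genes on the log2(FPKM + 1) scale (points) with 95% intervals from limma (bars), in 2i + LIF (blue) and PD + LIF (red). Filled points passed an adjusted p of 0.05 over all genes. No point is filled in 2i + LIF. In PD + LIF Spred1 lies to the right of 0 and Etv5 and Epha2 to the left.

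The difference of the genotype effect between the media was tested directly as an interaction. Limma called 0 of the 10 genes, where 1.81% of all genes passed, and 3 of the 10 and 19.0% of all genes were under an unadjusted p of 0.05. These were Etv5 (-0.34 ± 0.08, limma adjusted p = 0.0795), Epha2 (-0.47 ± 0.13, limma adjusted p = 0.115) and Spred1 (0.38 ± 0.14, limma adjusted p = 0.211). The genotype effects of the 3 genes in PD + LIF were therefore not shown to differ from those in 2i + LIF. The same interaction reads as a difference of the medium effect between the genotypes, so the larger falls of Etv5 and Epha2 and the absent call of Spred1 in Trincr1-/- ESCs were not shown to differ from wild type either.

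The genes closest to the mean profile of the 10 genes were Tet2, Bcat1 and Nkx1-2. Their log2(FPKM + 1) values correlated over the 8 samples with the mean centred profile of the 10 genes at r of 0.998 each. The samples fall into 2 media, so these values mostly describe the step between media, and 87 of the 8531 genes with a mean of at least 5 FPKM were above 0.99. The mean profile was not scaled per gene, so members with large changes such as Etv4 weigh most in it. The members did not share a profile. With Etv4, Spry4 correlated at r of 0.99, but Spred1 at 0.51, Spred2 at 0.0006 and Dusp4 at -0.98. Tet2, a 5-methylcytosine dioxygenase, was at 16.8 to 17.9 FPKM in 2i + LIF and 2.72 to 2.97 FPKM in PD + LIF.

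The lists of other pathway genes are read against the shares of all genes given above: with the medium 30.9% rose and 21.3% fell in wild type and 29.6% and 20.3% in Trincr1-/-, and with genotype in PD + LIF 6.29% were higher and 5.77% lower. More rises than falls with the medium was thus the pattern of all genes as deposited, and it was not kept after quantile normalization. Of 10 FGF ligands tested, 5 rose and 2 fell in wild type and 6 rose and 3 fell in Trincr1-/-. Fgf15 rose from 0.13 ± 0.0367 to 2.79 ± 0.408 FPKM in wild type (mean ± SD, n = 2), and Fgf10 fell from 2.49 ± 0.0239 to 0.252 ± 0.0784 FPKM. Fgf4, the main ligand of ESCs, averaged 79.2 ± 0.306 FPKM in 2i + LIF and 82.0 ± 1.05 FPKM in PD + LIF in wild type (limma adjusted p = 0.414), and in PD + LIF it was lower in Trincr1-/- at 56.8 ± 3.09 FPKM (limma adjusted p = 0.00266). Of 11 receptor tyrosine kinases tested, 6 rose and 1 fell in wild type and 8 rose and 1 fell in Trincr1-/-. Fgfr2 rose 39.4-fold in wild type, from 0.983 ± 0.424 to 38.8 ± 1.18 FPKM, while Kit fell from 54.5 ± 0.355 to 16.9 ± 2.75 FPKM. With genotype in PD + LIF 2 of the receptors were higher and 2 lower. Fgfr1 averaged 65.1 ± 0.987 FPKM with the knockout and 47.8 ± 0.981 FPKM without it (limma adjusted p = 0.0111), a call lost when any one of the 4 PD + LIF samples was left out. Kit was lower at 5.98 ± 0.114 against 16.9 ± 2.75 FPKM (limma adjusted p = 0.00188), and so was Erbb3 at 3.15 ± 0.646 against 7.24 ± 0.906 FPKM (limma adjusted p = 0.00874). Thus the receptors Fgfr1 and Fgfr2 were higher in the medium in which 8 of the 10 feedback and target genes were lower.

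Among 20 adaptors and cascade components, 8 rose and 3 fell in wild type with the medium, near the 30.9% and 21.3% of all genes, led by Mapk3 (ERK1), from 23.4 ± 2.16 to 54.4 ± 3.55 FPKM. With genotype in PD + LIF 3 were higher and none lower, where 6.29% and 5.77% of all genes were. Among them were Ptpn11, which encodes the phosphatase SHP2, and Shcbp1, the SHC-binding protein that the study placed downstream of TRIM71. That link concerns the protein: the study found more SHCBP1 protein in Trincr1-/- ESCs, but no significant rise of its mRNA by qPCR. The study names no medium beside that qPCR. In 2i + LIF Shcbp1 was at 31.9 and 30.6 FPKM in Trincr1-/- and at 29.5 and 32.8 FPKM in wild type. The means and the call that follow are from PD + LIF. The mean of Shcbp1 was 33.7 ± 2.64 FPKM with the knockout, compared with 27.1 ± 1.03 FPKM (0.31 ± 0.08, limma adjusted p = 0.0447), and this call was lost under 12 of 17 alternatives. The count of 3 became 0 to 2 with one sample left out, 0 without Trincr1-/- PD + LIF replicate 1. The counterparts of the 10 genes did not all move like them. Of 12 other inhibitors of RAS-ERK signaling tested, 7 rose and 0 fell in wild type, where 30.9% and 21.3% of all genes did, and 7 rose and 2, Dusp1 and Rasa1, fell in Trincr1-/-. Dusp5, a nuclear ERK phosphatase, rose from 1.11 ± 0.286 to 5.68 ± 1.18 FPKM in wild type and from 0.92 ± 0.225 to 9.41 ± 0.743 FPKM in Trincr1-/-. Of these 12, only Dusp9 differed between genotypes in PD + LIF, at 29.7 ± 0.818 FPKM against 13.3 ± 0.289 FPKM (limma adjusted p = 0.00103). Of 17 other ETS factors tested, 4 rose and 7 fell in wild type, against 30.9% and 21.3% of all genes. Etv1, the remaining PEA3-group factor, fell from 6.62 ± 1.34 to 0.642 ± 0.148 FPKM, while Ets1 rose from 0.0254 ± 0.0119 to 3.04 ± 0.00557 FPKM. With genotype in PD + LIF 2 of the 17 were higher and 0 lower, where 6.29% and 5.77% of all genes were. These were Etv1, at 1.77 ± 0.601 against 0.642 ± 0.148 FPKM (limma adjusted p = 0.0447), and Erf, an ETS repressor, at 36.2 ± 3.35 against 28.7 ± 0.134 FPKM (limma adjusted p = 0.0356), and these calls were lost under 11 and 9 of 17 alternatives.

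Of 9 other Eph receptors tested, 2 rose and 2 fell with the medium in wild type, where 30.9% and 21.3% of all genes did, with Epha4 falling from 15.6 ± 0.722 to 6.78 ± 0.32 FPKM and Ephb2 rising from 2.60 ± 0.13 to 6.42 ± 0.37 FPKM. Only Ephb1 of these was called with genotype in PD + LIF, at 1.44 ± 0.365 FPKM against 0.349 ± 0.0168 FPKM. Of 8 ephrin ligands, 6 rose and 0 fell with the medium in each genotype, and 6 were higher and 0 lower in Trincr1-/- in PD + LIF, where 6.29% and 5.77% of all genes were, with a median genotype change of 0.54 against 0.01 over all genes. The count of 6 fell to 1 or 2 when any one of the 8 samples was left out. Efnb2, which averaged 12.7 ± 0.736 FPKM against 5.47 ± 0.277 FPKM, passed under all 17 alternatives. The receptor Epha2 was lower in the group in which these ephrin genes were higher, but Efnb2 is a B-type ephrin. Of the A-type genes, Efna2, Efna3 and Efna5 were among the 6, and Efna1 and Efna4 were not called. In PD + LIF Efna1 was at 2.22 and 1.46 FPKM in Trincr1-/- and at 3.33 and 2.29 FPKM in wild type. Efna4 was at 12.5 and 13.0 FPKM in Trincr1-/- and at 9.79 and 11.2 FPKM in wild type.

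Of 14 immediate early and growth response genes tested, which ERK is known to induce, 5 were higher and 1 lower in Trincr1-/- in PD + LIF. There 6.29% and 5.77% of all genes were, and the median was 0.30 against 0.01 over all genes. Egr1, Egr2, Egr3 and Fosb, also of this list, did not average above 0.2 FPKM and were not tested. In PD + LIF Emp1 was at 9.89 ± 1.11 against 3.61 ± 0.363 FPKM, Myc at 9.63 ± 1.89 against 3.78 ± 0.25 FPKM and Phlda1 at 2.96 ± 0.6 against 1.11 ± 0.234 FPKM. Without a call, Emp1 was also higher in Trincr1-/- in 2i + LIF, at 16.6 and 14.7 FPKM against 8.01 and 10.9 FPKM in wild type. The 5 became 0 to 3 with one sample left out, 0 without Trincr1-/- PD + LIF replicate 1. With the medium in wild type 6 of the 14 rose, Jun among them, and 4 fell, Ccnd1 among them, against 30.9% and 21.3% of all genes. Of 12 β-catenin and TCF targets tested, 7 fell and 2 rose with the medium in wild type, where 21.3% and 30.9% of all genes did, and Axin2 fell from 23.3 ± 0.0921 to 2.86 ± 0.364 FPKM. In PD + LIF 4 of the 12 were higher and 1 lower in Trincr1-/-, where 6.29% and 5.77% of all genes were, and Axin2 was at 9.76 ± 1.77 FPKM there (limma adjusted p = 0.00254). In 2i + LIF Tnfrsf19, a further gene of this list, was called as higher in Trincr1-/- (limma adjusted p = 0.0221), a call lost when any one of the 8 samples was left out.

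In a separate experiment, RNA bound to FLAG-tagged TRIM71 was pulled down from UV-crosslinked ESCs overexpressing it in 2i + LIF and sequenced beside input RNA. The deposited table holds 1 value for the pulldown (IP) and 1 for the input per transcript, so no spread can be given, and the control pulldown from empty ESCs was not analysed here. Epha2 stood apart from the other 9 genes. Its input was 22.8 FPKM and its IP 87.6 FPKM, or 196.7 after the scaling by the authors, a ratio of 8.63. It ranked 117 of the 9651 transcripts with an input above 2 FPKM, of which 5.10% had a scaled ratio above 3. Among 3279 transcripts with an input within 2-fold of that of Epha2, 0.915% had a ratio at least as high. Without the scaling the ratio was 3.84.

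Etv5 followed with an input of 63.6 FPKM, a scaled IP of 69.8 FPKM and a ratio of 1.1. Dusp4 had a ratio of 0.59, Dusp6 of 0.40 and Il17rd of 0.114. Etv4, with an input of 36.6 FPKM, was listed at 0 in the unscaled IP. Spry2, with an input of 12 FPKM, Spry4, Spred1 and Spred2 were also listed at 0 in the IP. Of the 7 members with an input above 2 FPKM, 1 passed a scaled ratio of 3, and 5 of the 10 were listed at 0, as were 60.2% of the 14054 transcripts. Epha2 was thus the only member past the ratio in the pulldown and also among the 3 called with genotype in PD + LIF, and the pulldown was made in 2i + LIF, where its genotype effect was -0.15 ± 0.09 (limma adjusted p = 0.509).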

How the data were processed

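The 8 RNA-seq samples were grouped by the genotype and medium given in the labels. The authors aligned reads with STAR 2.5.0 to the GENCODE annotation and deposited normalized FPKM from Cufflinks 2.2.1. Their methods name mm9, but of 19341 gene starts compared, 77% lay within 1000 bases of GRCm38.p6, and coordinates are given as GRCm38. Of 41260 entries, 39 identifiers appeared more than once of which only the most abundant entry was used. Per the labels, the pulldown table holds FPKM for the input and the IP, a signal scaled by the authors (the IP multiplied by 2.25) and a fold ratio that is their own comparison and was not used. How its 2 replicates were combined is not given in the sources used here.

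Log2(FPKM + 1) values of genes averaging more than 0.2 FPKM were fitted with limma 3.58.1 in R 4.3.3, all 4 groups in 1 model with a variance trend and no covariates, two-sided, with Benjamini-Hochberg adjustment over 15430 genes and a threshold of 0.05. On simulated data the fit recovered 191 of 200 genes changed by 1 log2 unit in the comparison of genotypes in PD + LIF. It made 15 false calls beside these 191, out of 15430 genes. The changed genes were drawn only from those with a mean log2(FPKM + 1) above 2. Each gene was given the average spread of genes at its expression level, and no medium effect was simulated. Recovery of effects below 1 log2 unit, or of genes at lower expression, was not tested. The genotype effects of the 10 members in PD + LIF ran from -0.62 to 0.58. The members and the gene lists were chosen with earlier results of these data known. All 10 members are described, with Fgf4, Fgfr1, Fgfr2, Shcbp1 and Gm2694. From each list at most 3 called genes with the largest change were named per comparison, and the 3 genes closest in profile. Dusp1, Rasa1, Cldn6, Dnmt3b, Eomes, Cdx2, Tfap2c, Dppa5a, Sox2, Klf4, Tdgf1, Efna1, Efna2 and Efna4 were named after their values were seen. So were Tbx6, Egr1, Egr2, Egr3 and Fosb. Single-gene results of 2 list members are not reported here. Promoters came from the RefSeq table for GRCm38.p6. P-values measure the spread between samples that the labels call replicates. No source states whether these came from separate cultures. Estimated fragments use annotated transcript lengths. Tables and figures used numpy 2.4.6, pandas 2.3.3 and matplotlib 3.10.9 under Python 3.11.15. Other pseudocounts, filters, scalings, thresholds, blocks and leaving out each sample were tried.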

Additional observations from a re-analysis of the deposited data

Results flagged for a closer look

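Among the genes of the pathway lists reported here, 7 had a genotype effect that differed between the media by the interaction term of limma, and none of the 10 members did. The difference of the log2 fold change (PD + LIF minus 2i + LIF) was 1.05 for Dusp9 (adjusted p = 0.0158), 1.22 for Efnb2 (adjusted p = 0.0272), 1.17 for Fgf15 (adjusted p = 0.038), 1.56 for Sp5 (adjusted p = 0.0272) and 1.09 for Axin2 (adjusted p = 0.0409), all from limma. It was -1.37 for Kit (limma adjusted p = 0.02) and -0.64 for Tcf7 (limma adjusted p = 0.0475). Dusp9, an ERK phosphatase like Dusp4 and Dusp6, was at 7.97 and 8.58 FPKM in wild type and 8.52 and 8.67 FPKM in Trincr1-/- in 2i + LIF, and at 13.5 and 13.1 FPKM and at 29.1 and 30.3 FPKM in PD + LIF. Each of these 7 calls was lost under 4 to 12 of 16 alternatives, the fewest for Dusp9.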

How the results depend on the processing

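Of 890 alternative values for single members, 855 kept their direction and their side of the threshold, 9 lost the threshold, 8 gained it and 18 changed sign, and the changes of sign were all in members that were not called. The counts over all genes were less stable. With genotype in 2i + LIF the count of 186 became 122 without a filter on low values, 0 with only the 2 groups compared (limma, 2106 genes at an unadjusted p under 0.05), 389 at an adjusted p under 0.1, 304 by the fold rule without a test, and 40 to 113 with one sample left out. With genotype in PD + LIF the count of 1861 became 316 with only the 2 groups compared, 3035 at an adjusted p under 0.1, 492 by the fold rule and 335 to 1519 with one sample left out, lowest without Trincr1-/- PD + LIF replicate 1. The count of 3 members there became 0 with only the 2 groups compared, 0 by the fold rule and 0 to 4 with one sample left out. The interaction count of 279 became 138 without a filter, 88 without a variance trend, 843 at an adjusted p under 0.1, where 1 member, Etv5, passed, and 3 to 34 with one sample left out, lowest without Trincr1-/- 2i + LIF replicate 2. With the medium, the fold rule took in 2331 genes in place of 8048 in wild type, 5 members in place of 9, and 2409 in place of 7708 in Trincr1-/-. The fit on 2 groups leaves 2 residual degrees of freedom in place of 4, and the fold rule has no test, while for the other changes the cause was not tested.

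Replicate numbers did not pair the samples, since the differences between same-numbered samples correlated at -0.054 to 0.006 over 15430 genes. A fit with the number as a replicate block gave 111 genes for genotype in 2i + LIF and 39 for the interaction, and it changed no count of members called.

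The medium effect of Spred2 in wild type was -0.056 after quantile normalization and -0.055 after TMM scaling, and -0.025 to 0.071 with one sample left out. With one sample left out, the genotype effect in 2i + LIF ran from -0.31 to 0.093 for Dusp6, -0.12 to 0.27 for Spry4 and -0.078 to 0.11 for Etv4, and in PD + LIF from -0.12 to 0.37 for Etv4. The interaction ran from -0.18 to 0.21 for Spry4, -0.13 to 0.014 for Spred2 and -0.13 to 0.36 for Etv4. The medium effect in Trincr1-/- ran from -0.19 to 0.036 for Spred1 and -0.11 to 0.037 for Spred2. The ratio of IP to input of Epha2 was 3.84 without the scaling and 8.31 with 1 FPKM added to both. With 2 samples per group small effects cannot be seen, and the depth of the pulldown is unknown.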
